A study of Mus musculus with 14 samples.

Results

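Type I collagen, its fibril partners and the RANKL-OPG pair were examined through the chromatin peaks called at 9 genes in ATDC5 cells. The genes were Col1a1, Col1a2, Col3a1, Col5a1, Col5a2, Sparc, Postn, Tnfrsf11b and Tnfsf11, of 21887 protein-coding genes on assembled chromosomes. A peak was assigned to a gene when it overlapped the gene span extended by 5 kb on each side by at least 1 bp, with coordinates of mouse build GRCm38. This gave 129 of the 170889 peaks in 12 lists. ATDC5 is a clonal mouse teratocarcinoma line that forms cartilage-like nodules. Per the labels, undifferentiated cells (day 0) were kept by serial passage, and cells of days 3 and 10 grew as dense spots with β-glycerophosphate and an ascorbate. Chromatin was precipitated with antibodies against the promoter mark H3K4me3 or the runt-domain factor RUNX2, with 2 libraries for each antibody and day. No genotype change or other agent is named. Separate cultures are not mentioned for the pairs of libraries, and their spread may be technical.

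H3K4me3 is deposited around transcription starts, and long stretches of it are known from highly transcribed and cell identity genes. Collagen I, built from the chains of Col1a1 and Col1a2, is the main protein of bone matrix. Collagens III and V co-assemble with it, and SPARC and periostin bind the fibrils. RANKL, encoded by Tnfsf11, drives osteoclast formation through its receptor RANK, and osteoprotegerin (OPG), encoded by Tnfrsf11b, is the decoy receptor that binds RANKL. RUNX2 is required for osteoblasts and hypertrophic chondrocytes, and both express members of this group.

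The lists differ in ways that touch every result below. H3K4me3 lists held 13765 to 29022 peaks covering 14.5 to 35.7 Mb, and the shortest were those of replicate 1 on days 0 and 10. RUNX2 lists held 97 to 108 peaks on days 0 and 10 and 19319 and 16859 on day 3. The 2 RUNX2 lists of day 3 placed the summit on the same base in 8991 of 17330 overlapping peaks (51.9%). In the 27 other pairs among these 8 lists, 0.122 to 0.642% of the summits fell on the same base. Whether the 2 RUNX2 libraries of day 3 share reads was not tested, so the second is not used as independent support for the first. The number of reads behind each list is unknown here. Of markers for other cell types, the 5 skeletal muscle genes had no peak in any list, and among 8 osteoclast genes, of which 3 were called for H3K4me3 on each day, Acp5, Ctsk and Dcstamp had none. Chondrocyte markers had H3K4me3 in both libraries at 5 of 10 genes on day 0 and at 9 on days 3 and 10, and osteoblast markers at 3, 3 and 4 of 7. Macrophage markers had it at 1, 4 and 2 of 6 and endothelial markers at 1 of 5 on each day. Of all protein-coding genes, 54.8%, 64.3% and 59.4% had H3K4me3 in both libraries on days 0, 3 and 10. No peak in any list was found at 28.4%. The part of any of these cell types in the results was not tested.

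Promoter sequence was available in the RefSeq table (GRCm38.p6) for 6 of the 9 genes. The 250 bases before the annotated start are shown for 5 promoters because they range from none to many CpG dinucleotides, the sequence feature most often tied to H3K4me3. They are chr2:27886175-27886424 (Col5a1, plus strand), chr11:55420081-55420330 (Sparc, minus strand), chr3:54360857-54361106 (the downstream start of Postn, plus strand), chr1:45311288-45311537 (Col3a1, plus strand) and chr14:78308044-78308293 (Tnfsf11, minus strand). Each CpG is in capitals.
Col5a1: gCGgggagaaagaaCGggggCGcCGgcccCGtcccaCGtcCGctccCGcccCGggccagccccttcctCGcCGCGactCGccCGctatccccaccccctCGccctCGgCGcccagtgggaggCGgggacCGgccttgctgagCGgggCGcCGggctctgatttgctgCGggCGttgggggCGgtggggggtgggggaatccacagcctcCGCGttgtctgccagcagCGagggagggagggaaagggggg
Sparc: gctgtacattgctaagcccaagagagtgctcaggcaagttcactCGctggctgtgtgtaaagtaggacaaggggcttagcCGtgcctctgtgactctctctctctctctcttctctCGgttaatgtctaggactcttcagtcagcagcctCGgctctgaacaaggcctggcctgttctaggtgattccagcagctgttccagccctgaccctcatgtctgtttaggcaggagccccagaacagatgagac
Postn: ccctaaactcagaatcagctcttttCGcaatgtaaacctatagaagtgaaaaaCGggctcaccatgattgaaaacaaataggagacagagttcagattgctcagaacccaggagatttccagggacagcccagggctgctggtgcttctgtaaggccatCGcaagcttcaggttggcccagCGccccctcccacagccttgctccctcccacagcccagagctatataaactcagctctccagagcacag
Col3a1: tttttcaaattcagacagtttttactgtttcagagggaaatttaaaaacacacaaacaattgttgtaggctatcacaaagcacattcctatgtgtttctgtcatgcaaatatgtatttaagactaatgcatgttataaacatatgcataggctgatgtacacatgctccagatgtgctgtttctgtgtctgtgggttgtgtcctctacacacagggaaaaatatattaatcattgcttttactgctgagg
Tnfsf11: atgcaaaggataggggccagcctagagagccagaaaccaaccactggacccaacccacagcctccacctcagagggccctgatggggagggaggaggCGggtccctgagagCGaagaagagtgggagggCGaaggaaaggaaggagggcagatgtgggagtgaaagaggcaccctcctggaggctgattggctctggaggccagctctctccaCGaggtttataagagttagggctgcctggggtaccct
The Col5a1 promoter held 28 CpG, more than 90.2% of the 21263 promoter entries of protein-coding genes, whose median was 10. Sparc, the downstream start of Postn and Tnfsf11 each held 4, and Col3a1 held 0. On day 3, H3K4me3 peaks covered all 250 bases of the Col5a1, Postn and Col3a1 stretches in both libraries. At Sparc they covered 250 and 193 bases, and at Tnfsf11 they covered 0. In these 250 bases the unmarked Tnfsf11 promoter had as many CpG as the marked ones of Sparc and Postn and more than that of Col3a1. The H3K4me3 peaks extended beyond these bases, where CpG were not counted, and a link between CpG and the mark was not tested. Col1a2 had 11 CpG, and the upstream start of Postn 3.

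The motif letters TGTGGT and TGCGGT, cores recognised by RUNX proteins, were searched on both strands. Neither occurred in the 7 stretches of the 6 genes, which include both starts of Postn. At least 1 of them was held by 17.7% of all promoter entries, and 7 stretches are too few to set their absence apart from that share. The letters TATAAA, found in 11.6% of entries, began 26 bases before the downstream start of Postn. They lay 117 bases before the start of Col3a1 and, on the other strand, 32 bases before that of Tnfsf11, whose promoter carried the letters CCAAT on that strand as well. CCAAT occurred at Col1a2, 109 bases before its start, and in 35.4% of entries. The matches describe these letters only. At these 6 genes every RUNX2 summit of day 3 lay outside the 250 bases, and the sequence beneath them was not read.

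H3K4me3 was called at most of the group on all 3 days, and RUNX2 on day 3 alone. With a gene called where both lists of 1 antibody and day held a peak, H3K4me3 was called at 7 of the 9 genes on day 0, at 8 on day 3 and at 7 on day 10. The same rule called 54.8%, 64.3% and 59.4% of all protein-coding genes. RUNX2 was called at 0, 8 and 0 of the 9, against 0.0274%, 61.1% and 0.0183% of all genes, and each day 3 library alone also gave 8. Col1a1, Col1a2, Col5a1, Col5a2, Sparc and Tnfrsf11b had H3K4me3 in all 6 lists, as did 54.5% of genes. Postn lacked it in replicate 1 of day 0, Col3a1 lacked it in replicate 1 of day 10, and Tnfsf11 had no peak in any of the 12 lists. No H3K4me3 peak in any of its 6 lists was the state of 28.6% of genes. No member gained a peak, from none to both libraries, or lost one between any 2 days. Between days 0 and 3, a peak was gained at 3.23% of genes in the whole set and lost at 0.00914%. Between days 3 and 10 the shares were 0.0457% and 0.576%, and between days 0 and 10 they were 1.11% and 0.00914%. Cells were assayed in bulk, so more cells carrying the mark and more mark per cell cannot be told apart.

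**Figure D1:**
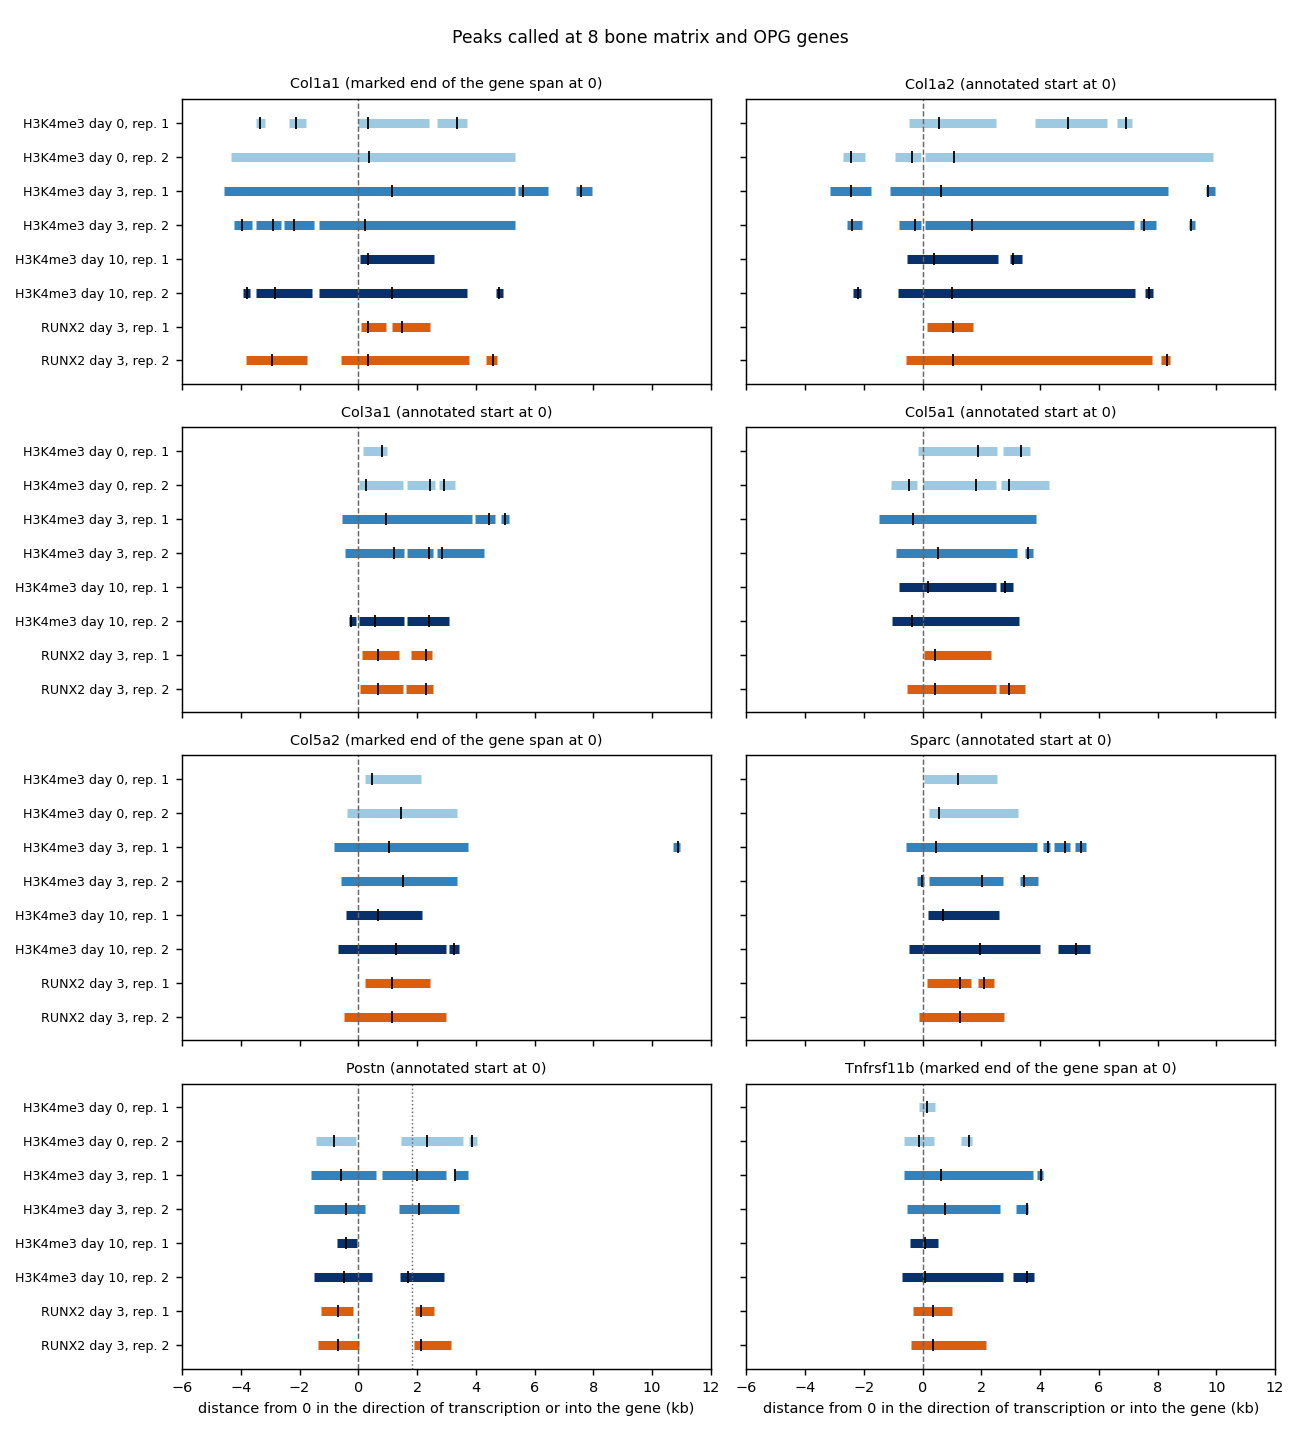
Peaks (bars) and their summits (black ticks) at 8 of the genes, one row per library, against the distance in kb from the annotated start or, for Col1a1, Col5a2 and Tnfrsf11b, from the gene end where the peaks lie. The dotted line marks the downstream start of Postn. The 6 H3K4me3 lists and the 2 RUNX2 lists of day 3 have peaks at or near the annotated start or that gene end. The exceptions are Postn, with none in replicate 1 of day 0, and Col3a1, with none in replicate 1 of day 10. At Col1a1, Col5a2 and Tnfrsf11b the end was chosen by the strongest H3K4me3 peak of replicate 1 of day 3, which partly fixes this nearness. Peaks of day 3 past the far end of Col1a1 lie outside the plotted range.

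The type I collagen genes had the most bases under H3K4me3 peaks of the group in 5 of the 6 lists, all but replicate 1 of day 10. Covered length, the number of bases of the gene window under peaks, was compared because bases are a unit that all lists share. At Col1a1 (gene ID 12842, chromosome 11, 94936224 to 94953042), which encodes the α1 chain, it was 4367 and 9665 bp in replicates 1 and 2 of day 0. It was 12420 and 9463 bp on day 3 and 2523 and 7470 bp on day 10. Day 3 was therefore high in both libraries and overlapped day 0 but not day 10. The peak of replicate 1 of day 3, chr11:94931649-94941558, was 9910 bp wide and ranked 20 by width among 28653 peaks of its list. In replicate 2 of day 0 the single peak was 9665 bp wide and ranked 2 among 20863. These stretches began upstream of Col1a1 and also overlapped the noncoding gene Gm46293 (94928561 to 94934616). Both day 3 libraries, and no other list, had a further peak past the far end of Col1a1, at chr11:94957073-94958928 in replicate 1 (fold enrichment 4.56) and 94957315 to 94957655 in replicate 2 (4.21). Fold enrichments are the authors' own values for each peak and are used only within a list.

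At Col1a2 (gene ID 12843, chromosome 6, 4505618 to 4541543), which encodes the α2 chain, the covered length was 5930 and 11463 bp on day 0, 11155 and 9215 bp on day 3 and 3536 and 8623 bp on day 10. The main peak of replicate 2 of day 0, 9791 bp wide, ranked 1 by width among all 20863 peaks of that list. On day 3 the widest Col1a2 peaks, of 9453 and 7135 bp, ranked 23 and 21. Col1a1 and Col1a2 lie on different chromosomes. On day 3 their lowest value, 9215 bp, was above the highest value of any other member, 5641 bp. In each of the 4 lists of days 0 and 3, between 99.2 and 99.9% of all protein-coding genes had a shorter covered length than either gene. On day 10 the shares were 91.4 and 99.2% for Col1a1 and 97.6 and 99.6% for Col1a2, and in replicate 1 of that day Col5a1 covered more bases than either.

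The minor fibrillar collagens covered fewer bases in most lists. Col5a1 (gene ID 12831, chromosome 2, 27886381 to 28039510), which encodes the main chain of the fibril-nucleating collagen V, varied little between lists, with 3590 and 5000 bp on day 0, 5357 and 4407 bp on day 3 and 3713 and 4318 bp on day 10. It ranked above 93.8 to 98.6% of genes in the 6 lists. Col5a2 (gene ID 12832, chromosome 1, 45374331 to 45503282), for the second chain of collagen V, had 1900 and 3740 bp on day 0, 4799 and 3960 bp on day 3 and 2578 and 3990 bp on day 10. Both day 3 values were above both of day 0.

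Col3a1 (gene ID 12825, chromosome 1, 45311538 to 45349706), which encodes the collagen of elastic and early repair tissue, had 820 and 2998 bp on day 0, 5376 and 4455 bp on day 3 and 0 and 3176 bp on day 10. Day 3 was above all 4 other lists, and the libraries of days 0 and 10 each differed widely. The day 0 peak of replicate 1 was weak, with a −log10 q of 3.04, and stood in the lowest ranks of its list (97.7% down by −log10 q). Col3a1 and Col5a2 are neighbours, 24.6 kb apart, and no peak of either window lay in the other. Only 40 genes (0.183%) shared the presence pattern of Col3a1 over the 12 lists. Likeness was taken as the Euclidean distance of log2(covered bp + 1) over the 6 H3K4me3 lists and the 2 RUNX2 lists of day 3. The genes most like Col3a1 were S100a3 (1.13), Ntrk3 (1.21) and S100a4 (1.46), against a median of 11.7 for all genes. On this scale a list at 0 bp weighs heavily, and each of these genes also had 0 bp in replicate 1 of day 10. The contrast with the median thus partly reflects that missing peak. S100a3 and S100a4 both had 1383 bp in replicate 1 of day 0, and whether they share peaks was not tested.

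Of the collagen-binding proteins, Sparc was marked throughout and Postn unevenly. Sparc (gene ID 20692, chromosome 11, 55394159 to 55420080) encodes osteonectin, a calcium- and collagen-binding protein of mineralised matrix. Its covered length was 2490 and 3029 bp on day 0, 5641 and 3399 bp on day 3 and 2441 and 5549 bp on day 10. Both day 3 libraries were above day 0, while the 2 libraries of day 10 were the lowest and the second highest of the 6.

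Postn (gene ID 50706, chromosome 3, 54359267 to 54391041) encodes periostin, a secreted protein of periosteum and other collagen-rich tissues. It had 0 and 3749 bp on day 0, 4856 and 3764 bp on day 3 and 701 and 3484 bp on day 10. Most of this lay in 2 blocks, one at the annotated start and one at the start 1840 bp downstream. On day 3 the blocks of replicate 1 were chr3:54357663-54359854 and chr3:54360063-54362252, with fold enrichments of 20.4 and 13.2. In replicate 1 of day 10 only the upstream block was called, with 701 bp. The noncoding gene Gm31095 (54359662 to 54361071) lies between the starts. The genes most like Postn in covered length were Dtna (distance 0.990), Fmo1 (1.02) and Bcl11b (1.03), with a median of 11.4 for all genes. Each of them also had 0 bp in replicate 1 of day 0, and the contrast with the median partly reflects that missing peak.

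**Figure D2:**
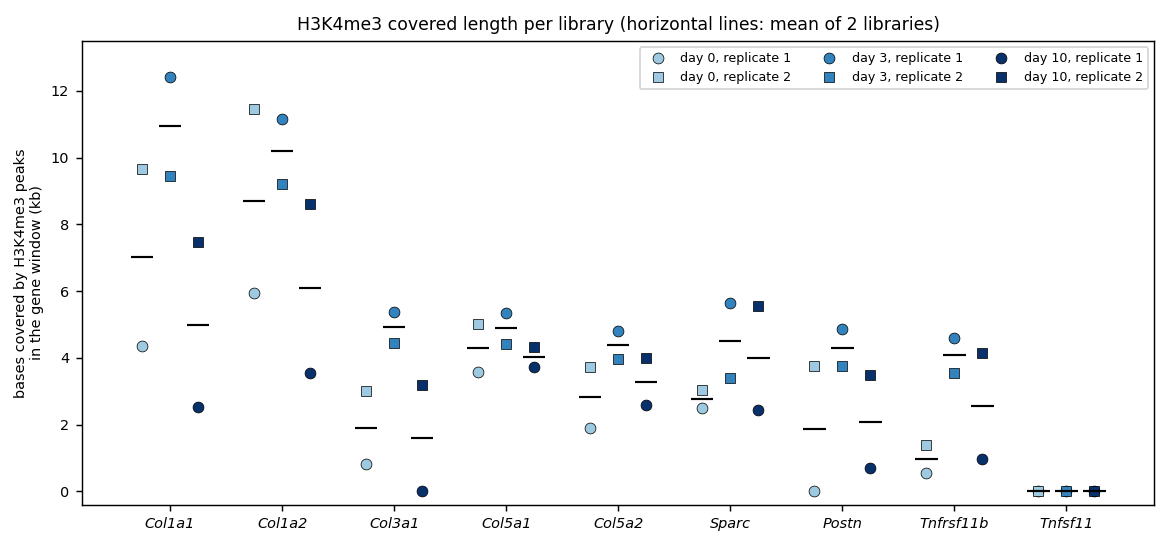
Bases of each gene window covered by H3K4me3 peaks, in kb, per library (circles, replicate 1; squares, replicate 2) and day (light to dark), with the mean of the 2 libraries as a line. Col1a1 and Col1a2 stand above the other genes on day 3, Tnfrsf11b has the lowest mean of the 8 marked genes on day 0, and Tnfsf11 is at 0 throughout.

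The RANKL-OPG pair was split, with OPG marked in every H3K4me3 list and RANKL in none. Tnfrsf11b (gene ID 18383, chromosome 15, 54250619 to 54278484) had short day 0 peaks, covering 544 and 1394 bp, at the gene end at 54278484. On day 3 it had 4598 and 3559 bp and on day 10 it had 956 and 4142 bp. Both day 3 libraries exceeded both day 0 libraries, and the mean was 4.21 times that of day 0, against a ratio of 1.78 for the length covered over the genome. This ratio was 2.93 without replicate 1 of day 0 and 7.50 without replicate 2. In the day 0 lists 55.0 and 62.2% of all genes had any H3K4me3 peak, and genes without one count as shorter. The share of all genes with a shorter covered length than Tnfrsf11b was 48.8 and 61.4% in these lists, mostly genes without a peak. It was 92.5 and 91.6% in those of day 3 and 51.9 and 92.9% in those of day 10, which thus had 1 library near each of the other days. In replicate 1 of day 3 its main peak was chr15:54274731-54279114, with a fold enrichment of 21.8 in that list.

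At Tnfsf11 (gene ID 21943, chromosome 14, 78277446 to 78308043, read on the minus strand) no H3K4me3 or RUNX2 peak was called within 5 kb of the gene span. A pattern without any peak was shared with 28.4% of all genes. Outside the window, both day 3 libraries and replicate 2 of day 10 had an H3K4me3 peak 27.9 kb upstream of the start, in the interval before Akap11. It was chr14:78335783-78336445 in replicate 1 of day 3 (fold enrichment 6.65), 78335814 to 78336125 in replicate 2 (4.67) and 78335757 to 78336114 in replicate 2 of day 10 (5.20). Neither day 0 list nor replicate 1 of day 10 had it. Their nearest upstream peak was near the higher-coordinate side of the Akap11 span (78536980), 228 to 229 kb away. The nearest upstream RUNX2 peak of day 3 was also at Akap11 in both libraries. Distal elements far upstream are known to control Tnfsf11 in osteoblast-lineage cells, and whether the peak belongs to one was not tested. Because depth is unknown, the missing peaks set no limit on how much of the mark Tnfsf11 carried.

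Between days, no covered length passed a test. A two-sided exact permutation test of 2 against 2 libraries cannot go below p = 0.333, and after Benjamini-Hochberg adjustment over the 27 comparisons of 9 genes the lowest exact p was 0.9. From day 0 to day 3, 5 of the 9 genes (Col3a1, Col5a2, Sparc, Postn and Tnfrsf11b) had both later values above both earlier ones, against 52.6% of all genes, and none had both below (0.0503% of genes). The members' count was near the share of all genes. It was 3 of 9 (Col5a2, Postn and Tnfrsf11b; 44.3% of all genes) with equal numbers of top peaks, and 8 of 9 (62.1%) without replicate 2 of day 0. The mean length covered over the genome was 17.9 Mb on day 0 and 31.8 Mb on day 3, a ratio of 1.78. The ratio of the member means was 1.56 for Col1a1, 1.17 for Col1a2, 2.57 for Col3a1, 1.14 for Col5a1, 1.55 for Col5a2, 1.64 for Sparc and 2.30 for Postn. Some of these rest on single day 0 libraries. Without replicate 1 of day 0 the ratio was 1.64 for Col3a1 and 1.15 for Postn. Without replicate 2 it was 5.99 for Col3a1 and 2.51 for Col1a1, and Postn had no day 0 peak to set a ratio against.

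From day 3 to day 10 the order was the opposite, with Col1a1, Col1a2, Col3a1, Col5a1 and Postn (5 of 9) lower in both later libraries, against 13.6% of all genes. None was higher in both, against 0.306%. With a −log10 q of at least 5 the lower group was 3 of 9 (Col1a1, Col1a2 and Postn; 12.6% of all genes). It was 8 of 9 without replicate 2 of day 3 (50.5%) or without replicate 2 of day 10 (61.8%). The largest difference in bp was that of Col1a1, from 10942 ± 2091 bp (SD, n = 2) to 4997 ± 3498 bp, a ratio of 0.457. The genome-wide covered length went to 24.6 Mb, a ratio of 0.775, and replicate 1 of day 10 was the shorter list with 15219 peaks against 29022. Without that replicate the Col1a1 difference was -3472 bp instead of -5945 bp.

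From day 0 to day 10 none of the 9 genes separated in either direction, against 14.4% of all genes higher and 0.206% lower. Without replicate 1 of day 10, 4 of 9 were higher (62.7% of all genes), and without replicate 2 of day 10, 4 of 9 were lower (16.6%). Leaving out a day 0 library also separated 4 of 9, with 4 lower without replicate 1 (5.13%) and 4 higher without replicate 2 (40.6%). Median covered lengths over all 9 genes were 1900 and 3740 bp on day 0, 5357 and 3960 bp on day 3 and 2441 and 4142 bp on day 10. The same medians over all protein-coding genes were 612 and 972, 1631 and 1320, and 884 and 1482 bp. The member spans were also longer than usual, with a median of 31775 bp against 17169 bp, and the part of span length in this difference was not tested.

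**Figure D3:**
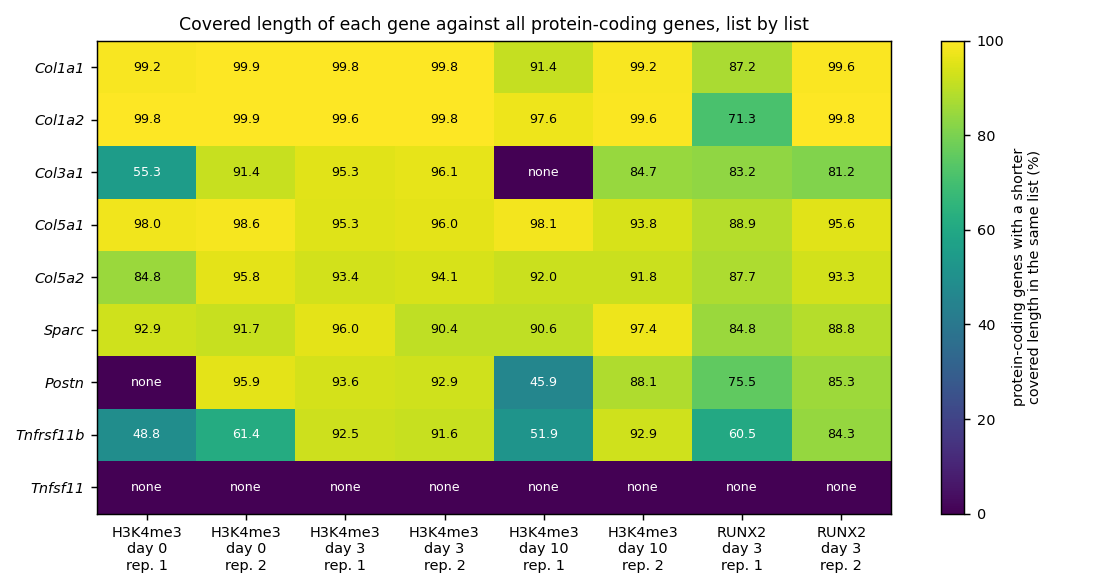
Share of all protein-coding genes with a shorter covered length than each member, in percent, computed within each list (columns), with "none" where no peak was called. In the 2 H3K4me3 lists of day 3 all 8 marked genes stand at 90.4% or above. Col3a1, Postn and Tnfrsf11b have no peak or shares of 55.3% or below in replicate 1 of days 0 and 10. Genes without a peak count as shorter, and in those 2 lists 55.0 and 59.5% of all genes had a peak.

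The strongest RUNX2 peaks of day 3 had their summits inside the H3K4me3 stretches, mostly just inside the annotated starts or marked gene ends. The strongest peak of replicate 1 had its summit 314 bp inside Col1a1, 1047 bp inside Col1a2, 675 bp inside Col3a1, 436 bp inside Col5a1, 1133 bp inside Col5a2, 1273 bp inside Sparc and 341 bp inside Tnfrsf11b. The offsets were counted from the annotated start or, for Col1a1, Col5a2 and Tnfrsf11b, from the marked gene end. That end was the one nearer the strongest H3K4me3 peak of replicate 1 of day 3, so nearness to it was partly fixed. Among these strongest peaks Postn was the exception, with the summit 682 bp upstream of its first start and a second peak past its other start. Col1a1 also had a weaker upstream peak in replicate 2, with its summit at 94933298. The strongest summits of replicate 2 lay within 0 to 11 bp of those of replicate 1, as for most genes. The median distance between the strongest summits was 0 bp over 13365 genes. For H3K4me3 on day 3 these distances were 157 to 2637 bp at the 8 genes, and the median over 14074 genes was 171 bp.

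**Figure D4:**
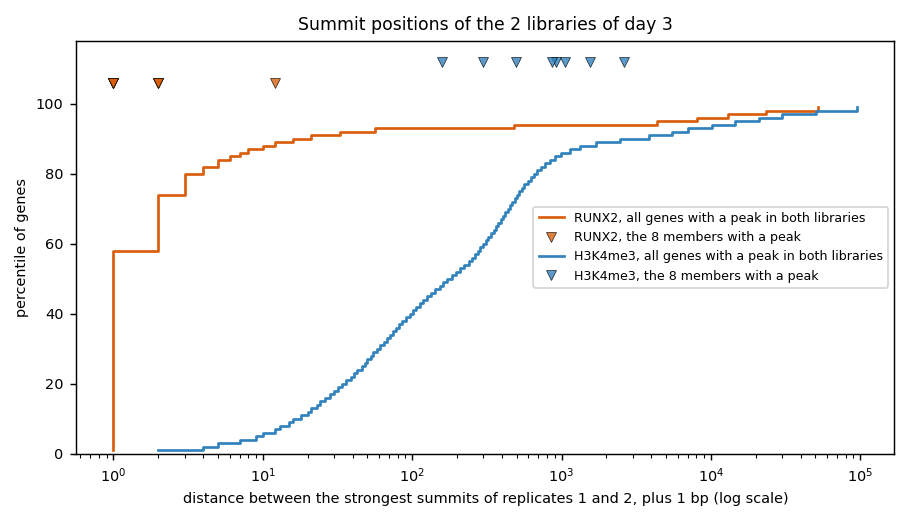
Distance between the strongest summits of the 2 libraries of day 3, plus 1 bp on a log axis, as percentiles over all genes with a peak in both libraries (lines), with the 8 members above (triangles). The RUNX2 distances of the members are 0 to 11 bp and the H3K4me3 distances 157 to 2637 bp.

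The strongest RUNX2 peaks at the members were weak to moderate within the list of replicate 1. They ranged from strong to weak within that of replicate 2. The median fold enrichments of the 2 lists were 6.25 and 10.1. The strongest peaks of replicate 1 were all below its median, and those of replicate 2 lay on both sides of its own. In replicate 1 the fold enrichments of the strongest peaks ranged from 2.59 (Col1a2) to 5.58 (Tnfrsf11b), and ranks by −log10 q ran from the top 43.3% (Col5a1) to the top 72.4% (Postn). In replicate 2 the values ranged from 5.64 (Col3a1) to 13.4 (Col5a1), and the ranks from the top 13.9% (Col5a1) to the top 71.2% (Postn). The peak widths differed between libraries most at Col1a2, where chr6:4505750-4507348 of replicate 1 stood beside chr6:4505039-4513427 of replicate 2. The latter, 8389 bp wide, ranked 13 by width among 16859 peaks.

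Of the RUNX2 peaks at the members, 12 of 12 in replicate 1 and 13 of 14 in replicate 2 had their summit inside an H3K4me3 peak of both day 3 libraries. Over all RUNX2 peaks the shares were 90.3% and 95.3%. The exception was a weak peak inside Col1a2, 4513735 to 4514040, with a fold enrichment of 2.70. On day 0, 9 of 12 and 8 of 14 of the positions already lay in H3K4me3 peaks of both libraries, against 65.1% and 69.3% of all RUNX2 peaks. Those outside were both peaks of Postn and the second peak of Col3a1 in each replicate and, in replicate 2, outlying peaks of Col1a1 and Col1a2. On day 10, 9 of 12 and 8 of 14 did, against 79.1% and 84.4%. Both H3K4me3 and RUNX2 were called on day 3 at 8 of the 9 genes, against 60.7% of all genes. Among the 14074 genes with H3K4me3 on that day RUNX2 was called at 94.4%, so its presence at the 8 was near the background.

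Related genes gave a frame for the group. Of all protein-coding genes, 54.8%, 64.3% and 59.4% were called for H3K4me3 on days 0, 3 and 10, and 61.1% for RUNX2 on day 3. Differences of the lists below from these shares were not tested. Of 12 other fibrillar and fibril-associated collagen genes, 9, 10 and 11 had H3K4me3 in both libraries on days 0, 3 and 10, and 9 had RUNX2 on day 3. Among them Col2a1, the cartilage collagen, covered 5461 and 4958 bp on day 3 and Col6a1, encoding a chain of collagen VI, 5915 and 5247 bp. Col24a1 had no peak on day 3, and Col5a3, for the third chain of collagen V, had 214 bp in replicate 1 alone. Of 18 genes of collagen I synthesis, 17 were called for H3K4me3 on each day and 17 for RUNX2 on day 3. Serpinh1, encoding a collagen-specific chaperone, covered 7270 and 6606 bp and P4ha1, a prolyl hydroxylase subunit, 4534 and 3659 bp on day 3. Loxl2, a collagen cross-linking enzyme, had no peak on day 3. Of 14 SPARC-family and matricellular genes, 11, 12 and 11 were called for H3K4me3 and 11 for RUNX2. Smoc1, a SPARC relative, covered 2215 and 1385 bp on day 3, and Sparcl1, another, 409 and 215 bp. Spock3 had no peak on day 3 and Spock1 had 522 bp in replicate 2 alone.

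On the RANKL side, 8, 9 and 9 of 10 RANK signalling genes were called for H3K4me3 on the 3 days and all 10 for RUNX2 on day 3. The shares of all genes were 54.8%, 64.3% and 59.4% for H3K4me3 and 61.1% for RUNX2. Among genes with H3K4me3 on day 3, RUNX2 was called at 94.4%. Tnfrsf11a, encoding RANK itself, had short stretches of 863 and 693 bp on day 3, and Lgr4, encoding another RANKL receptor, 5518 and 3774 bp. Tnfsf10, which encodes TRAIL, another OPG ligand, had 307 bp in replicate 1 alone on that day. Of 12 stromal regulators of RANKL and OPG, 10, 12 and 10 were called for H3K4me3 and 10 for RUNX2. Pth1r, the parathyroid hormone receptor gene, covered 10057 and 4438 bp on day 3 and Vdr, the vitamin D receptor gene, 2845 and 2301 bp. Of 11 other TNF ligands and receptors, 7, 9 and 9 were called for H3K4me3 and 9 for RUNX2 on day 3. Tnf and Tnfsf13b had a peak in replicate 1 of day 3 alone, of 240 and 1489 bp. Tnfsf9 and Tnfsf12 had peaks in both day 3 libraries, of 955 and 905 bp and of 1518 and 1369 bp.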

How the data were processed

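ChIP-seq libraries of ATDC5 cells gave 12 peak lists, 1 per library. The 2 input samples were not analysed here. Tools named per the submitters' processing notes are MACS2, HISAT2 2.2.0, Trim Galore and FastQC, with settings not given in the sources used here. The notes name GRCm39, but the peaks line up with gene starts of GRCm38, so GRCm38 coordinates are used. Each deposited list gives, per peak, the authors' fold enrichment (a ratio), −log10 q and a score, the last not used here. Peaks were called per library.

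Gene spans and promoter sequences came from RefSeq tables of GRCm38.p6. Peaks were assigned to genes, covered bases summed and summits compared with Python 3.11.15, numpy 2.4.6 and pandas 2.3.3, and the scripts were tested on simulated data. Covered lengths of 2 libraries per day were compared by two-sided exact permutation tests. Fold enrichment was not compared between lists. No read depth is given, so no interval or detection limit could be set. Alternatives were the extension (none or 10 kb), −log10 q of at least 5, equal numbers of top peaks, a replicate block, a summit or overlap rule, and leaving out each library.

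The 9 genes and all lists were chosen with earlier results of these data known. All 9 were named, with up to 2 called and 2 uncalled genes per pathway list in list order, and the 3 genes nearest in covered length to each member lacking H3K4me3 in a list (for Tnfsf11, 6209 genes tied at distance 0, and none is named).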

Additional observations from a re-analysis of the deposited data

How the results depend on the processing

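Counts of members with H3K4me3 in both libraries ranged over the alternatives from 6 to 8 on day 0, 8 to 8 on day 3 and 6 to 8 on day 10, and the RUNX2 count of day 3 remained 8. A −log10 q of at least 5 removed Col3a1 on day 0, and windows without extension removed Postn on day 10. Members gaining a peak from day 0 to day 3, and from day 0 to day 10, numbered 1 (Postn) instead of 0 with equal numbers of top peaks. Leaving out single libraries gave 0 to 1 gained in both comparisons, with 1 (Postn) without replicate 2 of day 0. It gave 0 to 1 lost from day 3 to day 10 and from day 0 to day 10, with 1 (Col3a1) without replicate 2 of day 10. Shares of all genes are not given here for these gained and lost counts.

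Members with covered lengths that did not overlap between days were counted under the same alternatives, except the summit rule, which was not run for covered length. Beside the main 5, 3 were higher on day 3 than on day 0 with equal numbers of top peaks (44.3% of all genes). With a −log10 q of at least 5, 3 were lower on day 10 than on day 3 (12.6%). Between days 0 and 10 the main counts were 0. Postn (1) was higher with equal numbers of top peaks (15.5% of all genes), and Col5a1 (1) was lower without extension (0.790%). Leaving out single libraries gave 5 to 8 higher for day 3 against day 0, with 53.8 to 64.9% of all genes. It gave 0 to 1 lower (0.0594 to 2.31%). For day 10 against day 3 it gave 5 to 8 lower (13.7 to 61.8%). For day 10 against day 0 it gave 0 to 4 higher (14.6 to 62.7%) and 0 to 4 lower (0.219 to 16.6%). The shares of all genes thus also changed with the library left out.

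Mean differences in covered length changed sign in 3 comparisons under other settings, all in bp. Col1a2, day 3 minus day 0, was -19.5 with equal numbers of top peaks. Without extension, Col5a1, day 3 minus day 0, was -64 and Postn, day 10 minus day 0, was -204. Leaving out single libraries turned 12 comparisons. For day 3 minus day 0 the ranges were -1278 to 4255 for Col1a2 and -118 to 1292 for Col5a1. For day 10 minus day 3 they were -2079 to 1029 for Sparc and -3122.5 to 63.5 for Tnfrsf11b. For day 10 minus day 0 they were -4668.5 to 629.5 for Col1a1, -5383.5 to 149.5 for Col1a2, -1909 to 1267 for Col3a1, -984.5 to 425.5 for Col5a1, -456 to 1384 for Col5a2, -318.5 to 2789.5 for Sparc, -1656.5 to 2092.5 for Postn and -13 to 3173 for Tnfrsf11b. The cause was not tested.

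Same-numbered libraries did not deviate together on all days, with correlations of their deviations over 15627 genes of 0.018 (days 0 and 3), -0.0321 (days 3 and 10) and 0.307 (days 0 and 10). The numbers are read as names, although the libraries of days 0 and 10 deviated together in part. Replicate 1 was the shorter list on both of these days. With a replicate block the exact permutation test cannot go below p = 0.5, which was the smallest value found. No difference could pass with or without the block.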
